A study of Saccharomyces cerevisiae with 4 samples.

Results

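The subject is a set of 10 yeast genes for taking up iron and zinc, read in RNA that was split by ribosome loading during a block of protein folding in the endoplasmic reticulum. The genes were chosen by name: FET3 (YMR058W), FTR1 (YER145C), FET4 (YMR319C), FET5 (YFL041W), FRE1 (YLR214W), ARN1 (YHL040C), SIT1 (YEL065W), ZRT1 (YGL255W), ZRT2 (YLR130C) and ZAP1 (YJL056C). A probe set, the group of short probes that reads a transcript on the array, was used when the probe-to-gene table gives 1 of these symbols and no other. This found 13 probe sets for all 10 genes, 4 of them for ZRT1 and 1 for each other gene, out of 5656 genes with such a probe set. All 10 genes, and 3923 genes in all, were measured, meaning above the floor set for low signal on every array.

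Saccharomyces cerevisiae strain BY4741, a haploid of mating type a carrying his3Δ1, leu2Δ0 and ura3Δ0 and, per the labels, met5Δ0, grew in YEPD at 30 °C to an OD600 of 0.5. Dithiothreitol (DTT), a reductant that breaks disulphide bonds, was then added to 2 mM for 1 h, and control cultures took the same volume of water. Translation was stopped by 0.1 mg/mL cycloheximide, and lysates in buffers that held 0.5 mM DTT for both treatments were spun through sucrose. The 4 groups, each 1 Affymetrix array (n = 1) on RNA pooled from 3 extracts, were polysomal RNA of DTT-treated cells, polysomal RNA of control cells, sub-polysomal RNA of DTT-treated cells and sub-polysomal RNA of control cells. Polysomal RNA sat deep in the gradient, with ribosomes on it, and sub-polysomal RNA near the top with few or none. Because each group is 1 array, no difference was tested against replicates, array and group cannot be told apart, and the number of arrays limits the precision of every value.

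Yeast takes up iron by a reductive route and by a siderophore route. In the reductive route surface reductases turn ferric into ferrous iron, which the copper-containing oxidase Fet3 and the permease Ftr1 carry in as a complex. In the siderophore route carriers bring in iron bound to chelators that other microbes release. The transcription factors Aft1 and Aft2 switch both routes on when iron is short. Zinc enters through a high-affinity transporter, Zrt1, and a low-affinity one, Zrt2, under the transcription factor Zap1, which senses zinc. The surface proteins of both systems are made at the endoplasmic reticulum, the compartment that DTT disturbs.

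Intensities are those the authors scaled so that arrays have about the same trimmed mean. For every difference they were taken to log2 and centred on each array's median over measured probe sets, so a difference of 0 is that of the typical probe set. Each array was labelled from 5 µg of RNA, so a value is relative to the other RNA of its fraction, and the share of a transcript that sits on polysomes was not measured. A gene was counted as higher or lower past a 2-fold limit. The pooled SD between probe sets for the same gene, over 161 genes, was 0.41 (log2) for DTT against control in polysomal RNA and 0.45 in sub-polysomal RNA. It was 0.32 for polysomal against sub-polysomal RNA in DTT-treated cells, 0.41 in control cells and 0.43 for the difference between those ratios. That SD covers the probes on these arrays only, not the spread between cultures.

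Some facts of the arrays touch all that follows. The control sub-polysomal array stood apart, with rank correlations between 0.885 and 0.920 in its pairs, against 0.922 to 0.959 in the pairs without it. The floors put the arrays in the same order as the ratio of the 3' to the 5' probe set of the actin gene ACT1. The floors were 15.9 (DTT polysomal), 17.6 (control polysomal), 22.6 (DTT sub-polysomal) and 28.2 (control sub-polysomal), and the ACT1 ratios were 1.48, 1.52, 1.91 and 2.49. As a check of the treatment, ERO1, the disulphide oxidase of the endoplasmic reticulum, was higher with DTT by 2.50 in polysomal and 1.19 in sub-polysomal RNA (log2). The other genes listed for this check were HAC1 (2.60 and 1.33), KAR2 (0.76 and 0.92) and PDI1 (0.46 and 0.64). KAR2 and PDI1 thus stayed short of 2-fold in both fractions. MET17, listed with 0.4 to 7.1, was below the floor on all arrays, whereas MET5, named in the labels as deleted, read 96.7 to 184.5. Of the other marker genes LEU2 and URA3 were below every floor. HIS3, given as his3Δ1, was measured, at 100.1 to 130.45 as a mean of 2 probe sets. The a-type receptor gene STE2 was measured, and STE3 of the other mating type was below every floor. MF(ALPHA)1, also of the other type, was above the floor on the control polysomal array alone, at 18.4.

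DTT against control shows which uptake transcripts differ in amount within each RNA fraction. In polysomal RNA 3 of the 10 genes were at least 2-fold lower with DTT, FET3, FTR1 and ZRT2, where 7.04% of all measured genes were that much lower. None of the 10 was 2-fold higher, against 4.33% of all genes. In sub-polysomal RNA 2 of the 10 were 2-fold lower, FET3 and FET4, against 11.1% of all genes, and 0 were 2-fold higher, against 5.68%. The median of the 10 was -0.36 in polysomal RNA, with -0.10 over all measured genes, and -0.23 in sub-polysomal RNA, with -0.20 over all genes. The genes did not move as a block: FET3 was about 4-fold lower, and others stood near 0 or above it.

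**Figure D1:**
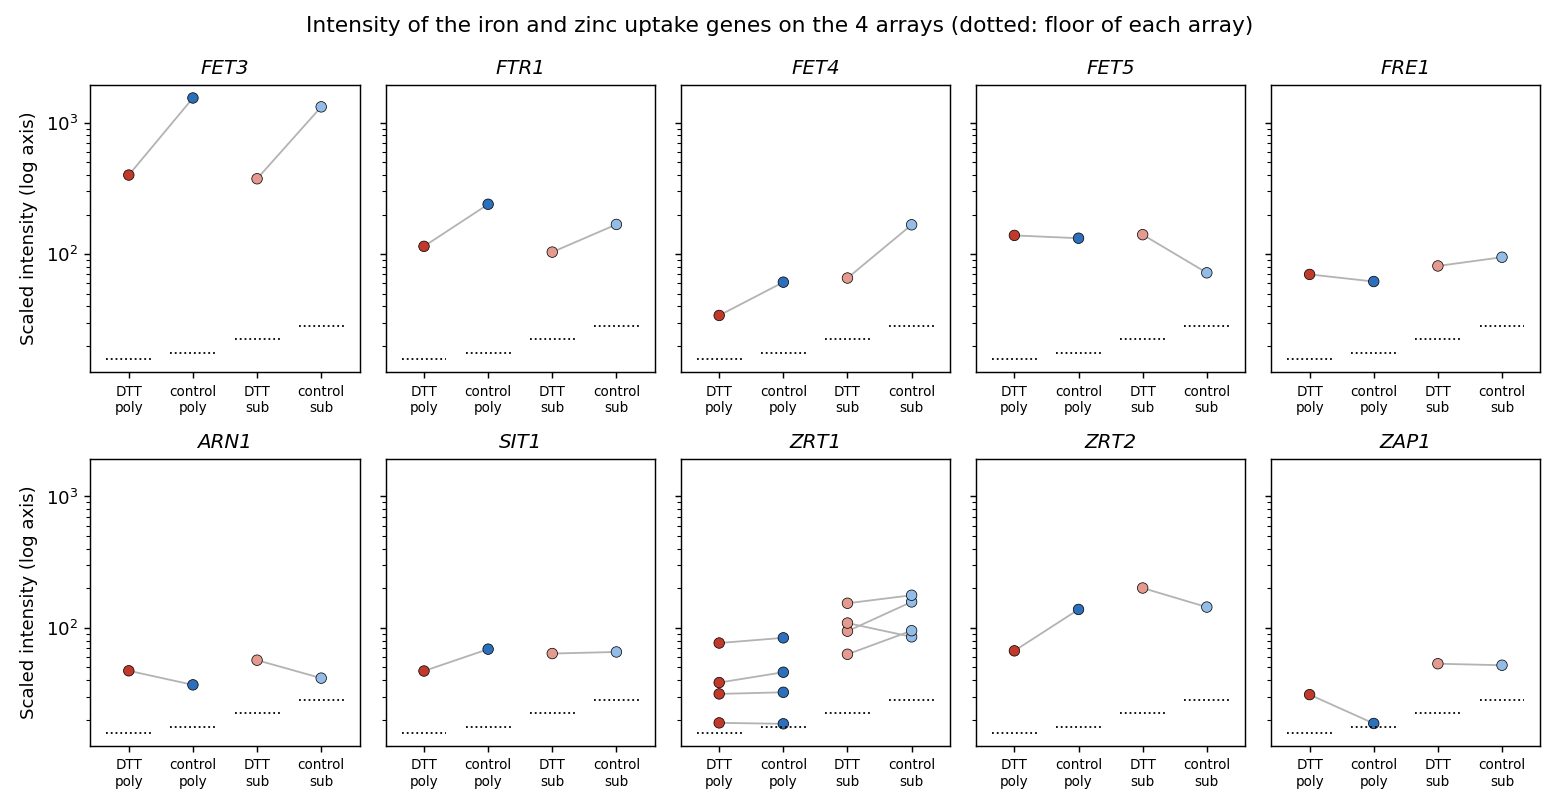
Scaled intensity (log axis) of every probe set of the 10 genes on the 4 arrays, polysomal RNA of DTT-treated and control cells on the left of each panel and sub-polysomal RNA on the right. Lines join DTT and control within a fraction and dotted bars mark each array's floor. FET3 lay furthest below its control in both fractions, and the lowest ZRT1 probe set and ZAP1 sat just over the floor on the control polysomal array.

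FET3 encodes the multicopper oxidase of the reductive route. Its probe set read 399.5 in polysomal RNA of DTT-treated cells, against 1542.3 in polysomal RNA of control cells. In sub-polysomal RNA it read 374.4 in DTT-treated cells and 1320.2 in control cells. Both DTT arrays were far below both control arrays. The log2 difference was -1.98 in polysomal RNA (3.94-fold lower) and -1.92 in sub-polysomal RNA (3.78-fold lower), each larger than the SD between probe sets. FET3 ranked 22 from the lowest of 3923 genes in polysomal and 25 in sub-polysomal RNA. It was the only one of the 10 genes that was 2-fold lower in both fractions, where 4.61% of all genes were. None of the 10 was 2-fold higher in both, against 2.83% of all genes.

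FTR1 encodes the permease that works in complex with Fet3. It read 114.5 in polysomal RNA of DTT-treated cells and 239.4 in that of control cells. In sub-polysomal RNA it read 103.5 with DTT and 168.1 in control cells. As for FET3, both DTT values were below both control values, but the difference was smaller, at -1.09 in polysomal RNA (2.14-fold lower) and -0.80 in sub-polysomal RNA (1.74-fold lower). The polysomal value of FTR1 was close to the 2-fold limit, and it was -0.84 when centred on the hybridisation controls, -0.98 with no floor and -0.99 with 16 added before log2.

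FET4 encodes a low-affinity permease of the plasma membrane that carries ferrous iron and also zinc and copper. It read 34.1 in polysomal RNA of DTT-treated cells and 61.1 in that of control cells, and 65.7 with DTT and 167.1 in control cells in sub-polysomal RNA. The log2 difference was -0.87 in polysomal and -1.45 (2.73-fold lower) in sub-polysomal RNA. Its control sub-polysomal reading lay above the other 3, and that array is the one that stood apart.

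FET5 encodes a multicopper oxidase related to Fet3 that works at the vacuole with the permease Fth1. It read 138.7 with DTT and 132.0 in control cells in polysomal RNA, and 140.5 with DTT and 72.0 in control cells in sub-polysomal RNA. Of its 4 readings 3 lay close together and the control sub-polysomal one was lower. The log2 difference was 0.04 in polysomal and 0.86 in sub-polysomal RNA. The polysomal value was within the SD between probe sets of 0.41, and it was -0.01 under quantile scaling. The sub-polysomal value was opposite in sign to that of FET3, but it uses the control sub-polysomal array, the one that stood apart. Its partner FTH1, which is not one of the 10, differed by -0.15 in polysomal and -0.27 in sub-polysomal RNA.

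FRE1 encodes the main surface reductase for iron and copper. It read 70.0 with DTT and 61.8 in control cells in polysomal RNA, and 81.2 with DTT and 94.6 in control cells in sub-polysomal RNA. Its differences of 0.15 and -0.32 were smaller than the SD between probe sets. ARN1, the carrier of ferrichrome-type siderophores, read 47.1 with DTT and 36.8 in control cells in polysomal RNA, and 56.7 with DTT and 41.4 in control cells in sub-polysomal RNA. Its differences were 0.33 and 0.35, also within that SD. SIT1, the carrier of ferrioxamine, read 46.9 with DTT and 68.8 in control cells in polysomal RNA, and 63.7 with DTT and 65.5 in control cells in sub-polysomal RNA. Its polysomal difference was -0.58 (1.50-fold lower) and its sub-polysomal difference -0.14. None of these 3 genes passed 2-fold in either fraction, and all were dim, between 1.47 and 4.40 times the floor.

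ZRT1 encodes the high-affinity zinc transporter. Averaged over its 4 probe sets it read 41.3 with DTT and 45.2 in control cells in polysomal RNA, and 104.9 with DTT and 128.8 in control cells in sub-polysomal RNA. The log2 difference was -0.13 ± 0.12 in polysomal and -0.40 ± 0.49 in sub-polysomal RNA (SD over 4 probe sets of the same arrays, not over samples). The polysomal value turned positive, 0.12, when centred on the hybridisation controls, and in sub-polysomal RNA the probe sets ranged from -0.84 to 0.25.

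ZRT2 encodes the low-affinity zinc transporter. It read 66.8 in polysomal RNA of DTT-treated cells, against 138.0 in that of control cells. In sub-polysomal RNA the order was turned, with 200.9 in DTT-treated cells and 143.8 in control cells. The log2 difference was -1.08 in polysomal RNA (2.11-fold lower) and 0.38 in sub-polysomal RNA (1.30-fold higher). Like that of FTR1, the polysomal value was near the limit, and it was -0.82 when centred on the hybridisation controls, -0.96 with no floor and -0.92 with 16 added before log2.

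ZAP1 encodes the zinc-sensing activator of ZRT1, ZRT2 and FET4, and of its own gene. It read 31.0 with DTT and 18.7 in control cells in polysomal RNA, and 53.3 with DTT and 51.9 in control cells in sub-polysomal RNA. The log2 difference was 0.70 in polysomal RNA (1.62-fold higher) and -0.06 in sub-polysomal RNA. The control polysomal reading was only 1.06 times the floor, and with 16 added before log2 the polysomal difference was 0.41.

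**Figure D2:**
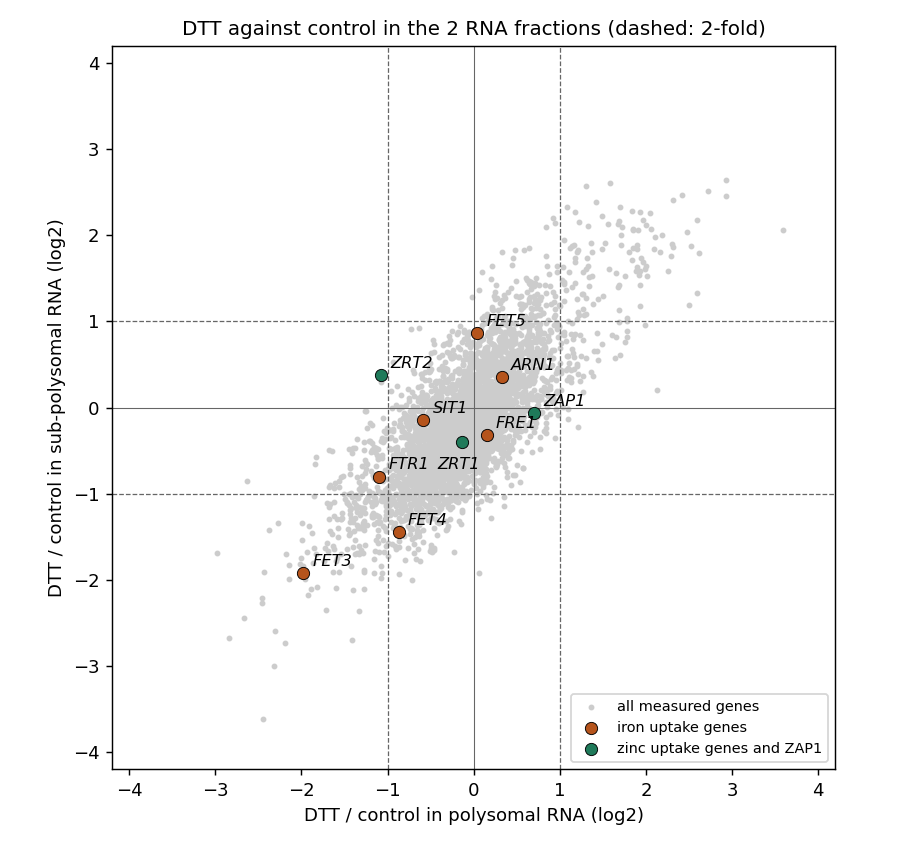
Log2 ratio of DTT-treated to control cells in polysomal RNA (horizontal axis) and sub-polysomal RNA (vertical axis) for 3923 measured genes in grey, with iron genes in brown and zinc genes in green. FET3 lies at the lower left at -1.98 and -1.92, and ZRT2 lies at the upper left edge of the cloud at -1.08 and 0.38.

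Polysomal against sub-polysomal RNA shows which uptake transcripts lean to ribosome-bound RNA, relative to the typical probe set. In DTT-treated cells ZRT1 and ZRT2 were at least 2-fold lower in polysomal RNA, 2 of the 10 genes against 3.8% of all measured genes, and 0 of the 10 were 2-fold higher, against 4.79%. In control cells FET4, ZRT1 and ZAP1 were 2-fold lower in polysomal RNA, 3 of 10 against 6.5% of all genes, and FET5 was 2-fold higher, against 7.11%. In control cells FET5 was past 2-fold in 5 of 9 alternatives (0.82 to 1.38), ZAP1 in 4 of 7 (-1.47 to -0.82), FET4 in 7 of 8 (-1.45 to -0.95) and ZRT1 in all 9. In DTT-treated cells ZRT1 was past it in 7 of 10 (-1.46 to -0.86) and ZRT2 in 9 of 10 (-1.59 to -0.99). The median of the 10 was -0.11 in DTT-treated cells, with 0.08 over all genes, and 0.06 in control cells, with -0.03 over all genes.

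The oxidase and permease of the reductive route were above 0 with either treatment but did not pass 2-fold. For FET3 the log2 ratio was 0.33 in DTT-treated cells and 0.39 in control cells, and for FTR1 it was 0.39 in DTT-treated cells and 0.68 in control cells. The FET3 values were about the size of the SD between probe sets, 0.32 in DTT-treated and 0.41 in control cells, and under loess scaling they were -0.11 and 0.02. FET5 had 0.22 in DTT-treated cells and 1.04 in control cells. FET4 leaned to sub-polysomal RNA, with -0.70 in DTT-treated cells and -1.28 in control cells.

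FRE1 and the siderophore carriers did not pass 2-fold with either treatment. FRE1 had 0.03 in DTT-treated cells and -0.44 in control cells, the control value just over the SD between probe sets of 0.41. ARN1 had -0.03 with DTT and 0.00 in control cells, and SIT1 had -0.20 with DTT and 0.24 in control cells.

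The transcript of the high-affinity zinc transporter leaned to sub-polysomal RNA with either treatment. ZRT1 had a ratio of -1.22 ± 0.32 in DTT-treated cells and -1.48 ± 0.77 in control cells (SD over 4 probe sets). Each of its 4 probe sets was below 0 in both treatments. The size differed between them: the brightest, at 4.77 to 6.81 times the floor, gave -0.76 with DTT and -0.91 in control cells. The dimmest, at 1.06 times the floor on the control polysomal array, gave -1.49 with DTT and -2.18 in control cells. ZAP1, also dim, had -0.54 in DTT-treated cells and -1.30 in control cells. The sub-polysomal arrays had the higher floors and the higher ACT1 3' to 5' ratios given above, and the part of these in the ratios was not tested.

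ZRT2 differed between the treatments. Its log2 ratio was -1.35 in DTT-treated cells (2.54-fold lower in polysomal RNA) and 0.11 in control cells. It was thus near the typical probe set without DTT, and 42 from the lowest of 3923 genes with DTT.

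**Figure D3:**
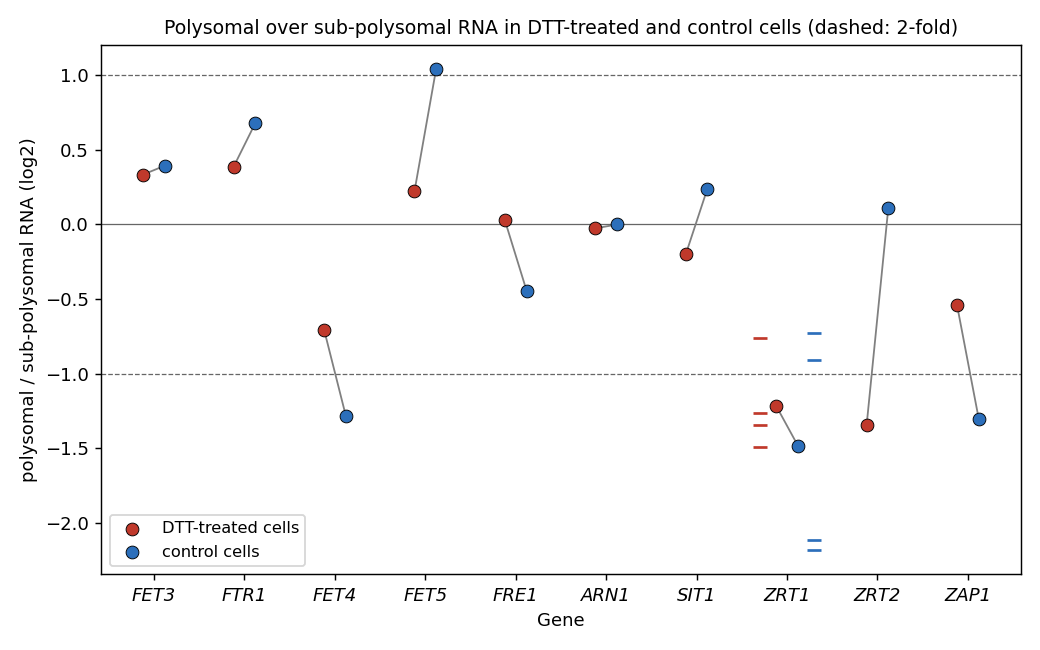
Polysomal over sub-polysomal RNA (log2 ratio) for each gene in DTT-treated cells (red, left) and control cells (blue, right), with the 4 single probe sets of ZRT1 as short bars. ZRT2 stands at -1.35 with DTT and 0.11 in control cells, the widest gap of the 10 genes, and ZRT1 is low in both.

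The change in polysome association is the ratio in DTT-treated cells minus that in control cells. It uses all 4 arrays, and so shares them with the comparisons above. ZRT2 alone of the 10 genes passed 2-fold, lower by 2.75-fold (log2 -1.46), where 1.45% of all measured genes were that much lower and 1.99% that much higher. It ranked 7 from the lowest of 3923 genes, and it was between -1.58 and -1.27 in the 9 alternatives in which it could be computed. ZRT2 was read by 1 probe set, so no second probe set bears on it, and the value exceeded the SD between probe sets of 0.43.

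The other 9 genes did not reach 2-fold. FET5 came nearest on the lower side, at -0.82, with 3.80% of all genes below it. ZAP1 at 0.76, FET4 at 0.58 and FRE1 at 0.47 were on the higher side, and SIT1 at -0.44 and FTR1 at -0.29 on the lower. FET3 at -0.06 and ARN1 at -0.03 were close to 0. For ZRT1 the value was 0.27 ± 0.60 over its probe sets, which ranged from -0.54 to 0.77 and so did not settle a direction. The large difference of FET3 with DTT was therefore of like size on and off polysomes, while the values of ZRT2 had opposite signs, the sub-polysomal one of 0.38 being within the SD between probe sets of 0.45. Without the control sub-polysomal array these changes cannot be computed. The polysomal difference of ZRT2 with DTT and its ratio within DTT-treated cells do not use that array, and with it left out of the filter and the centring they were -1.09 and -1.35.

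The other genes of metal handling were read from lists by function. Of 24 further genes of iron uptake and of the Aft1 and Aft2 regulon, 16 were measured under the symbols listed. The reductase genes FRE2, FRE3, FRE4, FRE5 and FRE7 were below the floor on at least 3 arrays each. FIT1 and CTH1 were below it on 1 array each, and no probe set was found under the symbol FRA2. That gene is also called BOL2, and under that name it was measured, but it is not among the 16 or in their medians. BOL2 differed with DTT by 0.44 in polysomal and -0.48 in sub-polysomal RNA. Of the 16, 1 was 2-fold higher with DTT in each fraction and 0 were 2-fold lower, against 4.33% higher and 7.04% lower of all genes in polysomal RNA and 5.68% and 11.1% in sub-polysomal RNA. The list's median was -0.10 in polysomal and 0.03 in sub-polysomal RNA. The gene that was higher was TIS11, also called CTH2, whose product binds and destabilises transcripts of iron-using proteins when iron is short. TIS11 read 140.2 with DTT and 38.1 in control cells in polysomal RNA, and 200.1 with DTT and 44.6 in control cells in sub-polysomal RNA. Its log2 differences were 1.85 and 2.06, in the opposite direction to FET3. Both are known targets of Aft1.

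The cell wall mannoproteins Fit2 and Fit3 help to hold siderophores at the surface. FIT2 differed by -0.22 in polysomal and -0.86 in sub-polysomal RNA, and FIT3 by -0.53 and -0.66. The enterobactin carrier gene ENB1 differed by -0.56 and -0.80, and the siderophore carrier gene ARN2 by 0.05 and 0.17. Of the regulator genes themselves, AFT2 was near 0, at -0.03 and 0.08. AFT1 was above 0 in both fractions, at 0.30 and 0.29, within the SD between probe sets. The medians over all measured genes were -0.10 and -0.20.

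Of 15 further zinc genes 13 were measured. In polysomal RNA 1 was 2-fold higher with DTT, against 4.33% of all genes, and 1 lower, against 7.04%. In sub-polysomal RNA 2 were higher, against 5.68%, and 1 lower, against 11.1%. The list's medians were -0.15 in polysomal and -0.19 in sub-polysomal RNA, close to those of all genes. ZRC1, which moves zinc into the vacuole, was lower in both fractions. It read 173.3 with DTT and 401.7 in control cells in polysomal RNA, and 246.0 with DTT and 483.8 in control cells in sub-polysomal RNA, differences of -1.24 and -1.08. The polysomal value was past 2-fold in 9 of 10 alternatives (up to -0.99) and the sub-polysomal one in 5 of 9 (up to -0.84). MCD4, listed here as a Zap1 target and an enzyme of GPI anchor synthesis in the endoplasmic reticulum, was higher. It read 705.3 with DTT and 191.5 in control cells in polysomal RNA, and 749.3 with DTT and 194.0 in control cells in sub-polysomal RNA, a difference of 1.85 in each. YKE4, a zinc transporter gene of the secretory pathway, differed by 0.71 in polysomal and 1.45 in sub-polysomal RNA. ZRT3, ZPS1 and ADH4, also Zap1 targets, did not pass 2-fold in either fraction, unlike MCD4. Their differences were -0.46, -0.79 and 0.89 in polysomal RNA, and -0.83, -0.71 and 0.49 in sub-polysomal RNA.

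Fet3 needs copper, and 9 of 10 copper genes were measured. In polysomal RNA 2 were 2-fold higher with DTT, against 4.33% of all genes, and 0 lower, against 7.04%. In sub-polysomal RNA 2 were higher, against 5.68%, and 0 lower, against 11.1%. CUP2, the copper-sensing activator, differed by 1.27 in polysomal and 1.32 in sub-polysomal RNA. CTR2, the copper transporter of the vacuole, differed by 1.10 and 1.00, past 2-fold in 9 of 10 alternatives in polysomal and 6 of 9 in sub-polysomal RNA. The surface copper transporter gene CTR1 was near 0, at -0.09 and -0.01. The genes that hand copper to Fet3, ATX1 and CCC2, did not pass 2-fold, with ATX1 at -0.40 in polysomal and -0.88 in sub-polysomal RNA and CCC2 at -0.44 and -0.27. COX17, which brings copper to cytochrome oxidase, differed by 0.39 in polysomal and -0.80 in sub-polysomal RNA. Its ratio of polysomal to sub-polysomal RNA was 0.08 in DTT-treated cells and -1.11 in control cells, a change in polysome association of 1.19.

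Of 24 genes of iron storage, mitochondrial iron carriers and iron-sulphur cluster assembly, 21 were measured. In polysomal RNA 1 was 2-fold higher with DTT, against 4.33% of all genes, and 0 lower, against 7.04%. The higher one was ISD11, a partner of the cysteine desulphurase, at 1.37, with 0.41 in sub-polysomal RNA. In sub-polysomal RNA 1 was 2-fold lower, against 11.1% of all genes, and 0 higher, against 5.68%. The lower one was the ferredoxin gene YAH1, at -1.11, past 2-fold in 5 of 9 alternatives (-1.18 to -0.87). In polysomal RNA YAH1 differed by -0.93. The scaffold gene ISU1 differed by -0.71 and -0.85 and the vacuolar iron carrier gene CCC1 by -0.81 and -0.57. The medians were -0.12 in polysomal and -0.02 in sub-polysomal RNA.

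**Figure D4:**
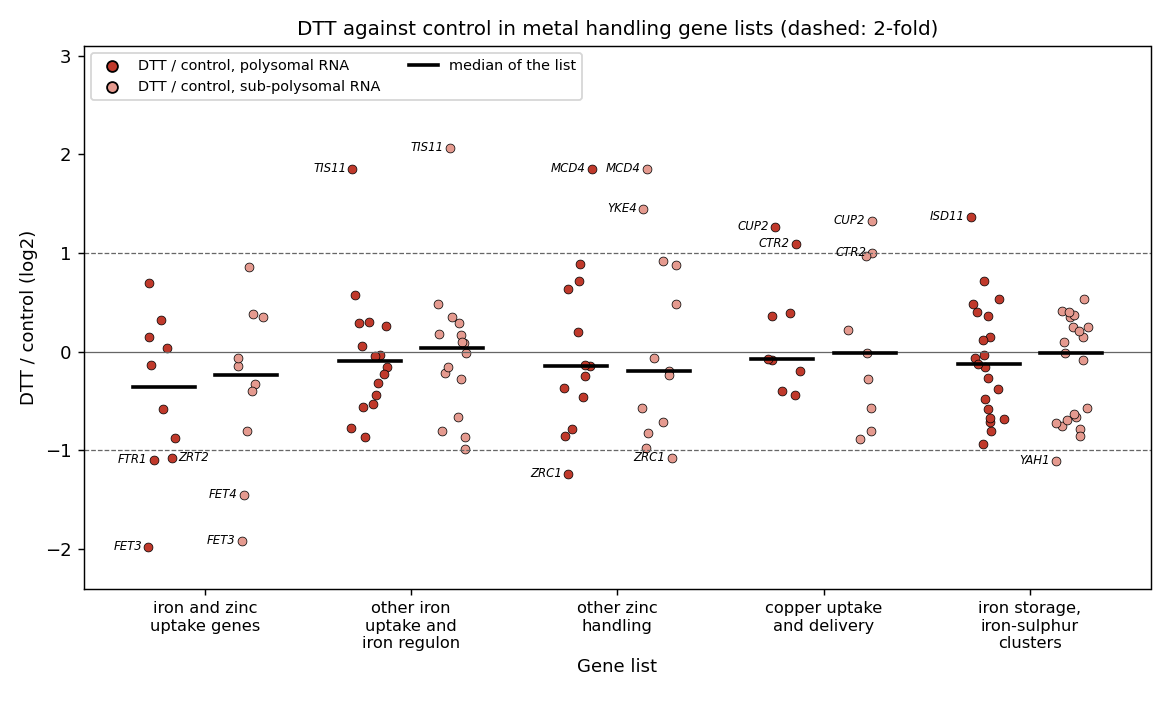
Log2 ratio of DTT-treated to control cells for the measured genes of each metal handling list, in polysomal RNA (dark points) and sub-polysomal RNA (light points), with black bars at the list medians and names beside genes past 2-fold. All medians lie between -0.36 and 0.03, and single genes such as FET3, TIS11, MCD4 and ZRC1 stand far from them.

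The genes most like FET3 over the 4 arrays were not genes of iron uptake. Likeness was the distance between profiles of log2 values, each centred on the gene's own mean. The nearest were WSC4, which encodes a membrane protein of the Wsc family (distance 0.19), and SDA1, needed for ribosome assembly (0.20). The wall protein genes GAS3 (0.27), TIP1 (0.28) and DSE2 (0.35) made up the 5. TIP1 differed by -1.89 in polysomal and -2.10 in sub-polysomal RNA, and WSC4 by -2.15 and -1.83. FTR1 was 173 in that order, at a distance of 1.02, and FET4 was 1014. The 5 nearest to ZRT1 were DAD4, a gene of the kinetochore, YJL118W, the lipid kinase gene LSB6, GIS3 and AAD10, at distances of 0.16 to 0.20. ZAP1 was 298 and ZRT2 was 972 in that order. Over 4 arrays many genes lie close to any profile, so these ranks are a description only.

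**Figure D5:**
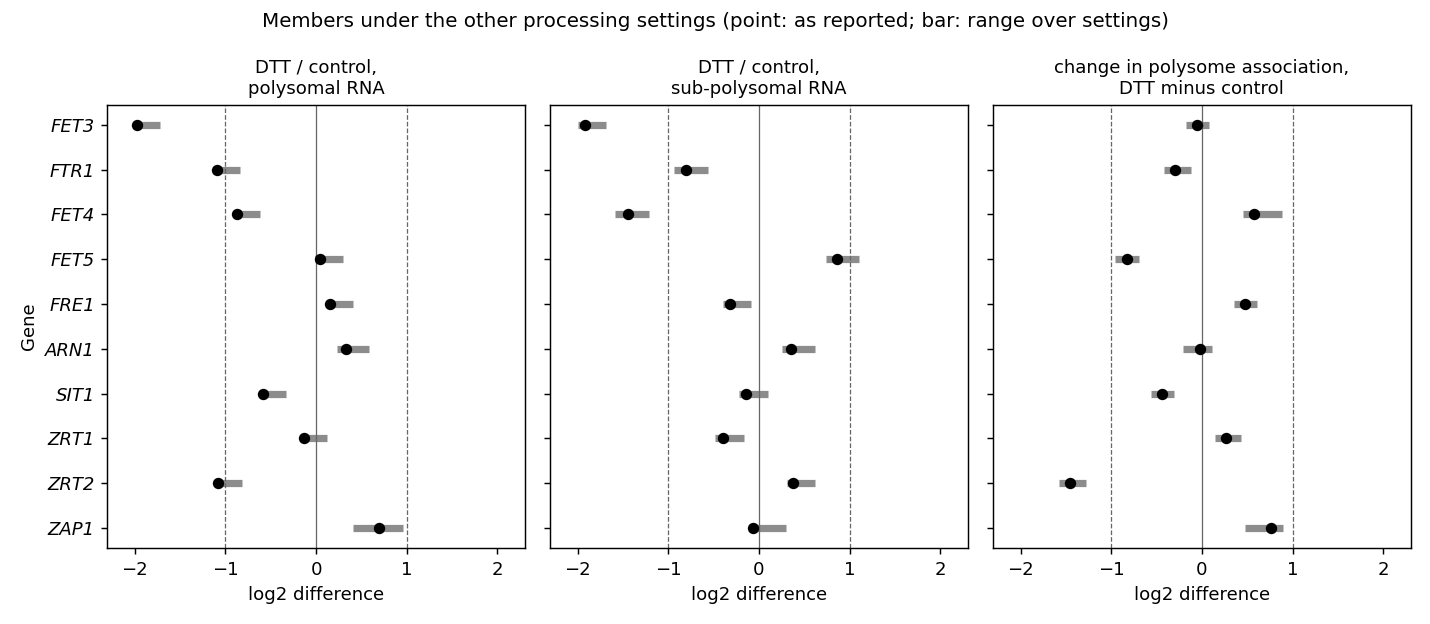
Log2 differences of the 10 genes as reported (points) and their range over the other processing settings (grey bars), for DTT against control in polysomal RNA, in sub-polysomal RNA and for the change in polysome association. FET3 stayed beyond 2-fold in both fractions and ZRT2 in the change in polysome association. The bars of FTR1 and ZRT2 in polysomal RNA cross the lower 2-fold line, and that of FET5 in sub-polysomal RNA crosses the upper one.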

How the data were processed

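Per the series design text, each of the 4 arrays holds RNA pooled from 3 extracts. Per the run sheets the chip is YG_S98. Each probe set has 1 deposited linear intensity per array, which the authors scaled (trimmed mean 100.1 on each array). The software for this: not given in the sources used here. Detection calls were not used. All 4 value columns belong to a sample.

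Of 9335 probe sets, 6504 name 1 gene in the probe-to-gene table, matched by gene ID to a table of assembly R64, used for names. An array's floor was its 40th percentile. Probe sets above it on all 4 arrays were taken to log2, centred on the median of 4720 non-control probe sets and averaged per gene. No p-value was computed, since each group is 1 array. Code was tested on simulated data (Python 3.11.15, limma 3.58.1 for loess).

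The members, gene lists and limits were chosen with earlier results of these data known. Named genes were the 10 members, list genes past 2-fold with DTT in a fraction or in the change in polysome association, and the 5 genes nearest to FET3 and to ZRT1. FTH1, ARN2, FIT2, FIT3, ENB1, AFT1, AFT2, BOL2, ZRT3, ZPS1, ADH4, CTR1, ATX1, CCC2, ISU1 and CCC1 fall outside that rule and were named for their role after their values were seen. Sequences are not shown.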

Additional observations from a re-analysis of the deposited data

Results flagged for a closer look

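ZRT2 was the one uptake gene with opposite differences in the 2 fractions that lay at least 2-fold apart. With DTT it was lower by 1.08 on the log2 scale in polysomal RNA and higher by 0.38 in sub-polysomal RNA, a change in polysome association of -1.46. The sub-polysomal value was within the SD between probe sets of 0.45. Each value rests on 1 array per group and 1 probe set, and the difference was not tested.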

How the results depend on the processing

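No paired analysis was possible because each group has 1 array. For the same reason no array could be left out of a group. Of 450 single-gene values of the 10 genes under the alternatives, 13 moved by more than the SD between probe sets, and 0 of the values past 2-fold changed sign. Of 858 values of the other named genes, 41 moved by that much and 0 past 2-fold changed sign. FET3 was past 2-fold in all 10 alternatives in polysomal RNA (-2.00 to -1.72) and all 9 in sub-polysomal RNA (-1.99 to -1.68). Counts of the 10 genes past 2-fold with DTT, 3 in polysomal and 2 in sub-polysomal RNA, moved as follows. The polysomal count was 1 when centred on the hybridisation controls, with no floor, with 16 added before log2 and at a 3-fold limit. It was 5 at a 1.5-fold limit. Of all genes, 7.75% were higher and 3.98% lower with hybridisation controls, 7.77% and 9.48% with no floor, and 3.24% and 4.38% with 16 added. The all-gene shares were 1.73% higher and 1.55% lower at 3-fold, and 11.4% and 19.2% at 1.5-fold. The sub-polysomal count was 1 at 3-fold and with the floor moved to the 60th percentile, and 4 at 1.5-fold. With no floor it was 3, since FET5 was then 2-fold higher (1.10). Of all genes, 2.12% were higher and 2.12% lower at 3-fold, and 4.82% and 11.2% with the 60th percentile floor. The all-gene shares were 13.8% higher and 27.2% lower at 1.5-fold, and 11.2% and 9.92% with no floor. For polysomal against sub-polysomal RNA in DTT-treated cells the count of 2 was 0 with hybridisation controls and at 3-fold. It was 1 with the 60th percentile floor and with 16 added. Of all genes, 16.3% were higher and 1.02% lower with hybridisation controls, and 0.102% and 0.51% at 3-fold. The all-gene shares were 2.64% higher and 4.02% lower with the 60th percentile floor, and 2.93% and 1.38% with 16 added. In that comparison the median of -0.11 was 0.24 with hybridisation controls. That scaling also moved the all-gene median, to 0.44 from 0.08 here and to 0.16 from -0.10 for DTT against control in polysomal RNA. Over all comparisons and alternatives the all-gene median lay between -0.24 and 0.44. In control cells the count of 4 was 2 under loess scaling and with 16 added, 1 with the 60th percentile floor and 0 at 3-fold. Of all genes, 4.51% were higher and 6.17% lower under loess scaling, and 5.15% and 2.91% with 16 added. The all-gene shares were 4.98% higher and 7.66% lower with the 60th percentile floor, and 1.17% and 0.918% at 3-fold. For the change in polysome association the count of 1 was 3 at 1.5-fold and 0 at 3-fold. Of all genes, 13.6% were higher and 9.13% lower at 1.5-fold, and 0.051% and 0.051% at 3-fold. The 60th percentile floor left 7 of the 10 genes and plain probe sets left 9, so fewer genes could be counted. Signal over the floor limits ZAP1 and the dimmest ZRT1 probe set most, both 1.06 times the floor on the control polysomal array. Leaving the control sub-polysomal array out of the filter was added after seeing the data and kept the counts of 3 in polysomal RNA and 2 in DTT-treated cells.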
